A study of Mus musculus with 6 samples.

Results

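The histocompatibility and butyrophilin-like genes of the mouse H2 complex on chromosome 17 are described here by the contacts of their promoters in embryonic stem cells. Members were the genes in the H2 complex whose symbol starts with H2- or Btnl, and they ran from H2-K2 at position 33974659 to the end of H2-M2 at position 37483554 (build mm10). There were 52 member genes, of which 39 are annotated as protein-coding and 13 as pseudogenes. A bait, the promoter fragment that the capture probes enrich, was assigned to a member when it met the gene body or the 2 kb on either side. By this rule 41 member genes had a bait, 38 of them protein-coding. The 11 without one were H2-K2, H2-Pb, H2-Pa, H2-Ea, Btnl5-ps, Btnl7-ps, H2-Q3, H2-Q5, H2-T-ps, H2-M10.5-ps1 and H2-M6-ps. The members held 46 of the 19083 baits. Of the 46 baits, 40 met no other protein-coding gene and 6 were shared with a neighbour that is no member (Ring1 or Slc39a7 at H2-Ke6, Brd2 at H2-DMa, Gm6034 at H2-T22 and 2410137M14Rik at H2-M4-ps and H2-M5). H2-DMb2 and H2-DMb1 shared a bait, as did H2-M4-ps and H2-M5.

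The contacts were measured by promoter-capture Micro-C in E14TG2a (E14) cells, a line of embryonic stem cells from a male mouse, wild type in genotype and grown with serum and LIF. All cells were transfected with esiRNA, a pool of short interfering RNAs, and collected 48 h later: Brg1KD cells received esiRNA against Smarca4, which encodes Brg1, Ino80KD cells esiRNA against Ino80, and Control cells esiRNA against EGFP. Brg1 is the ATPase of the esBAF remodeler and Ino80 that of the INO80 complex, both of which move nucleosomes. There were 6 libraries, 2 in each of the 3 groups. By the labels, the first replicates of the 3 groups made up batch 1, the second replicates of both depletions batch 3, and Control replicate 2 batch 2. Separate cultures are not named for the replicates, whose spread may therefore be technical. The files hold contacts of DNA, so neither the knockdowns nor the expression of the members was checked. The libraries listed 12313 to 15385 intrachromosomal loops each, and the depth behind them is unknown.

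Class I molecules carry peptides from inside the cell to the surface for CD8 T cells. Class II molecules, made mainly by antigen-presenting cells, show peptides from taken-up protein to CD4 T cells. The class Ib genes of the Q, T and M regions encode non-classical relatives with narrower roles, and butyrophilin-like proteins act on T cells, among them the gamma delta T cells of the gut. Embryonic stem cells are known for low levels of class I and for lack of class II.

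Promoter windows of RefSeq (build GRCm38.p6, from 250 bases before to 50 after a gene's start) were at hand for 36 member genes, as 39 windows. They are shown for the classical class I genes H2-K1 and H2-D1, for H2-Ob and Btnl6, which held most of the member contacts with a low p after Brg1 depletion, and for 3 H2-M10 genes that shared contacts. Capitals mark CCAAT, GGGGATTCC, the kappa B sequence of class I promoters, and CCTAGCAAC, the core of the class II X box, on either strand, so that CCAAT also appears as ATTGG. H2-K1 is at chr17:34000284-34000583 on the minus strand and H2-D1 at chr17:35262844-35263143 on the plus strand. H2-Ob is at chr17:34238655-34238954 on the plus strand and Btnl6 at chr17:34517303-34517602 on the minus strand. H2-M10.2 is at chr17:36286372-36286671 on the minus strand, H2-M10.1 at chr17:36326101-36326400 on the minus strand and H2-M10.3 at chr17:36368368-36368667 on the minus strand.
H2-K1: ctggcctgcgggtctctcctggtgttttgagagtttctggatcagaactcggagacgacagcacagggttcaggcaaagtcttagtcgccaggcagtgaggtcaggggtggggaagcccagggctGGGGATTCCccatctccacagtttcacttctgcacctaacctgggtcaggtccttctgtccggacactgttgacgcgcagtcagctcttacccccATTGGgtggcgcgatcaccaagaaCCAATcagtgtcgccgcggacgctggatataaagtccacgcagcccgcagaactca
H2-D1: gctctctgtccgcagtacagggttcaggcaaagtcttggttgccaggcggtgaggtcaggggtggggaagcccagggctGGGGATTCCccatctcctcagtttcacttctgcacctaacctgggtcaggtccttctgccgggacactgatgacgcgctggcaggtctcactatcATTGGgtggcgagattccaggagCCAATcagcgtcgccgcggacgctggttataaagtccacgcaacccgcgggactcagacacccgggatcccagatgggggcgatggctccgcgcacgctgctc
H2-Ob: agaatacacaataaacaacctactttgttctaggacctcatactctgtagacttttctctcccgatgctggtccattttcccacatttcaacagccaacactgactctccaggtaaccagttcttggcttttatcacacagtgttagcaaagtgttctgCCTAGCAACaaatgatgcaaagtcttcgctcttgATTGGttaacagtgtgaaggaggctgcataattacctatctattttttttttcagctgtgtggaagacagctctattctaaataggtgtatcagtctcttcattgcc
Btnl6: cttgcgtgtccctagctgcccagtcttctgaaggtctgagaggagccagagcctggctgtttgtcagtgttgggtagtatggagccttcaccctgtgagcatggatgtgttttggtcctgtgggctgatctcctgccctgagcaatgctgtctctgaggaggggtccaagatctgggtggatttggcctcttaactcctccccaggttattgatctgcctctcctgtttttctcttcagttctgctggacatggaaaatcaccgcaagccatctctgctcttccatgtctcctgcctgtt
H2-M10.2: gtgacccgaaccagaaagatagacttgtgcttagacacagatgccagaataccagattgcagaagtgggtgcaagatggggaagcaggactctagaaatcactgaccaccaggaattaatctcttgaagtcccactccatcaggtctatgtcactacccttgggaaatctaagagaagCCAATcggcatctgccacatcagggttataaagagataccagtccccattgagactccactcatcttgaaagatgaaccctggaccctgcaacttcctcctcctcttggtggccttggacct
H2-M10.1: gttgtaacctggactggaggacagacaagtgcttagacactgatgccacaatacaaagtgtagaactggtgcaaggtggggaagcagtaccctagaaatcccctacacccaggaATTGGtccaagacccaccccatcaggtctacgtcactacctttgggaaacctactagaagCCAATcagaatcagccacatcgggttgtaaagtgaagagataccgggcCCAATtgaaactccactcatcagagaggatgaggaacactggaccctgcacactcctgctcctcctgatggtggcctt
H2-M10.3: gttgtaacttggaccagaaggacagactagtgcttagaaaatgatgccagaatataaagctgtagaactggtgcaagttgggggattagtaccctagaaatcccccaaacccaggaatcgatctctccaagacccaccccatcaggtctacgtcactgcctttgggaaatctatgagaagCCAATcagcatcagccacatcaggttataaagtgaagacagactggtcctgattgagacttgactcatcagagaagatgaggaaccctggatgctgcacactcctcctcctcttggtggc

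CCAAT was in 32 of the 39 member windows (82.1%), against 37.4% of all 32851 windows of the table. GGGGATTCC was in 5 member windows (12.8%), against 0.25% of all windows, and these belonged to H2-K1 (2 overlapping windows), H2-D1, H2-Q6 and H2-Q7. CCTAGCAAC was in 1 member window (2.56%), that of H2-Ob, and in 0.804% of all windows. Only exact matches were counted, so the other windows may still hold variants of that sequence. TATAAA was in 16 member windows (41.0%) and in 13.6% of all windows, and GGGCGG, the GC box, was in 2 (5.13%) and in 35.7%. A member window held a median of 3 CpG, against 7 over all windows. Among the 4 butyrophilin-like windows CCAAT was found in 1, that of Btnl1, and Btnl6 has none in capitals above. Many members are related copies: H2-M10 windows were 73.7% to 90.3% identical (15 pairs, median 82.7%), and those of Btnl4 and Btnl6 were 91.1% identical. Placement of reads between such copies is uncertain, and the labels do not say how such reads were filtered.

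A list of loops came with each library, in which a loop joins a bait to another end and carries the authors' score, at least 5. A loop that is not listed is taken to have scored below 5 and is not shown to be absent. Brg1KD libraries listed 102 and 119 member loops, Ino80KD libraries 94 and 112, and Control libraries 122 and 119. Per 1000 intrachromosomal loops of the same library these were 8.71 ± 0.599 in Brg1KD, 7.14 ± 1.08 in Ino80KD and 8.08 ± 0.216 in Control (mean ± SD, n = 2 each). The 2 Ino80KD libraries (6.37 and 7.90) lay below the 2 Control libraries (7.93 and 8.23), while the 2 Brg1KD libraries (8.28 and 9.13) lay above them. The ratio of means was 0.883 for Ino80KD over Control and 1.08 for Brg1KD over Control, and within batch 1 it was 0.804 and 1.04. For Ino80KD over Brg1KD it was 0.820, 0.769 within batch 1 and 0.865 within batch 3. The gap between Ino80KD replicate 2 and Control replicate 1 was smaller than the spread within Ino80KD. The 95% Wilson intervals, which cover counting error only, were 5.21 to 7.79 and 6.57 to 9.50 in the Ino80KD libraries, 6.83 to 10.05 and 7.64 to 10.92 in the Brg1KD libraries, and 6.65 to 9.46 and 6.89 to 9.84 in the Control libraries, all overlapping. A design of 2 against 2 libraries allows no exact two-sided permutation p below 0.33.

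The 196 other baits of the same stretch gave 26.8 ± 0.685 loops per 1000 in Brg1KD, 27.2 ± 1.75 in Ino80KD and 25.7 ± 0.665 in Control (SD, n = 2 each). Their ratio was 1.06 for Ino80KD over Control, with overlapping groups, and 1.04 for Brg1KD over Control, where the Brg1KD libraries (27.3 and 26.3) lay above the Control libraries (26.1 and 25.2) as they did for the members. Member baits held 2.40 loops per bait in Brg1KD, 2.24 in Ino80KD and 2.62 in Control, against 0.664, 0.758 and 0.782 over all baits in the same groups. The other baits of the stretch held 1.73, 2.01 and 1.95, so that most of the distance to all baits was shared by the neighbours.

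The classes of member genes differed in how they stood between groups. Q genes gave 0.542 and 0.564 loops per 1000 in Ino80KD, against 0.845 and 1.11 in Control, a ratio of 0.567. Classical class I genes gave 0.203 and 0.282 in Ino80KD, against 0.390 and 0.415 in Control (ratio 0.603), though from at most 6 loops a library. Butyrophilin-like genes gave 0.949 and 0.847 in Ino80KD, against 1.23 and 1.52 in Control (ratio 0.651), and M genes gave 2.03 and 2.19 against 2.60 and 2.63 (ratio 0.807). In these 4 classes the Ino80KD and Control libraries did not overlap. How often other sets of baits of that size do so was not counted. The authors' deposited fold changes for Ino80KD, given below, were mostly below 0 for M (20 of 81 rows above 0) and butyrophilin-like genes (7 of 40). They were not for Q (median -0.01, 15 of 31 above 0) and classical class I genes (median 0.01, 7 of 10 above 0). Class II genes gave 1.97 and 1.76 in Ino80KD, overlapping the 2.01 and 1.94 of Control.

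In Brg1KD the class II genes stood at 2.36 and 2.53 loops per 1000, above both Control libraries (ratio 1.24), and the other classes overlapped Control. T genes gave 0.610 and 1.34 in Ino80KD, against 0.715 and 0.692 in Control, so that the Ino80KD libraries lay on either side of Control. Ino80KD replicate 2 held 7 loops of H2-T22, whose protein is a ligand of gamma delta T cells, where Ino80KD replicate 1 held 0, Brg1KD libraries 1 and 0, and Control libraries 3 and 3. It also held 13 loops of H2-Ke6, which encodes a hydroxysteroid dehydrogenase and no histocompatibility molecule, where Ino80KD replicate 1 held 1, Brg1KD libraries 2 and 0, and Control libraries 2 and 0.

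**Figure D1:**
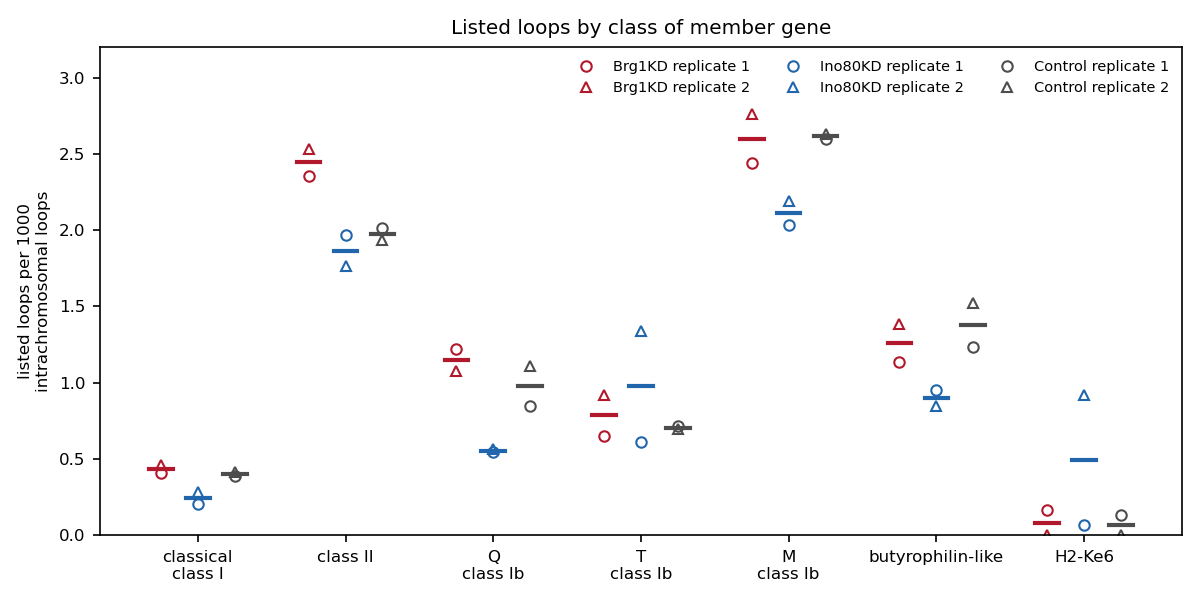
Listed loops of each class of member gene per 1000 intrachromosomal loops of the library, one point per library (circle for replicate 1, triangle for replicate 2) and a bar at the group mean. Both Ino80KD libraries lie below both Control libraries for classical class I, Q, M and butyrophilin-like genes, and the T genes and H2-Ke6 are spread by 1 Ino80KD library.

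Counted bait by bait, 12 of 46 member baits (26.1%) had fewer listed loops in both Ino80KD libraries than in either Control library, against 7.06% of all baits. These counts are not scaled to the length of the list. The other baits of the stretch gave 8.47%. Member baits carry more loops than most, which makes such a pattern easier to reach. Among baits with at least 6 loops in the 4 libraries it was 10 of 32 member baits (31.2%), against 10.5% of all such baits and 9.40% of the others in the stretch. The 12 baits were those of H2-Eb1, Btnl2, Btnl1, H2-Q6, H2-M10.1, H2-M10.3 and H2-M11, both of H2-D1 and both of H2-Q2. The last was 1 bait of H2-DMb2, the one not shared with H2-DMb1. More loops in both Ino80KD libraries were listed at 4 member baits (8.70%, all baits 6.12%), those of H2-Oa, H2-Q4 and H2-Bl and 1 of H2-DMa, and with at least 6 loops at 1 of 32 (3.12%, all such baits 10.99%).

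In Brg1KD, 4 of 45 member baits (8.89%) had more loops in both libraries than in either Control library, against 4.64% of all baits, and 7 (15.6%) had fewer, against 8.95%. With at least 6 loops these were 3 of 32 (9.38%), against 6.75% of all such baits, and 7 of 32 (21.9%), against 15.6%. The 4 were H2-Ob, H2-Aa, H2-Eb2 and H2-M11. The 7 were H2-Eb1, Btnl1, H2-T22, H2-M10.1, H2-M10.6, 1 bait of H2-DMa and the 1 bait of H2-DMb2 not shared with H2-DMb1. Between the depletions, 8 of 46 member baits (17.4%) had fewer loops in both Ino80KD libraries than in either Brg1KD library, against 5.05% of all baits, and 4 (8.70%) had more, against 9.05%. Among baits with at least 6 loops it was 6 of 33 (18.2%), against 7.16%, with fewer and 3 (9.09%), against 17.8%, with more. H2-M11 had the widest gap of the 8, with 1 and 0 loops in Ino80KD, against 7 and 8 in Brg1KD.

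**Figure D2:**
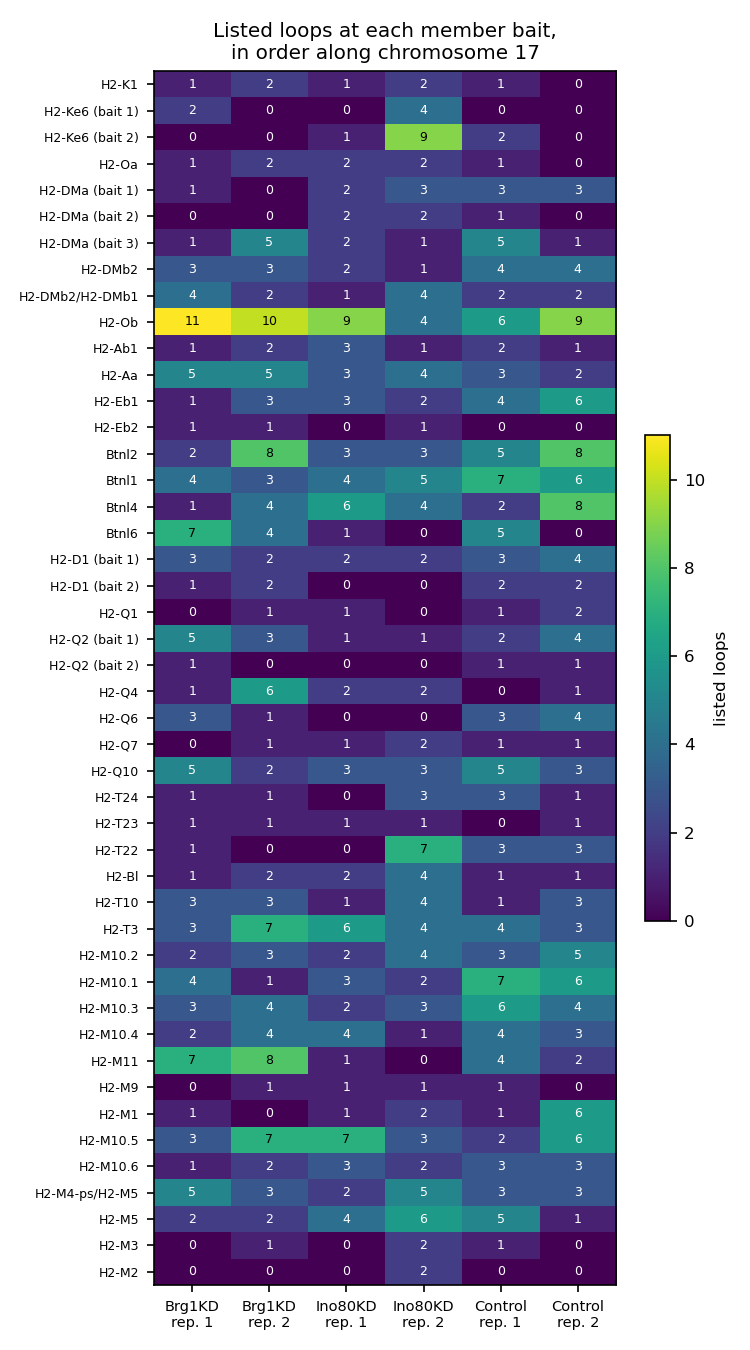
Number of listed loops (colour and digits) at each of the 46 member baits, rows in order along chromosome 17, columns the 6 libraries. H2-Ob has the largest numbers in the Brg1KD columns (11 and 10), and H2-M11 and Btnl6 are nearly empty in the Ino80KD columns.

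The lists overlapped little from library to library. Of 362 distinct member loops, 212 (58.6%) were listed in 1 library and 8 (2.21%) in all 6, against 68.2% and 3.12% of 49931 loops overall. A member loop spanned a median of 236 kb, against 302 kb over all loops, and 18 (4.97%) spanned over 1000 kb, against 11.2%. For the other baits of the stretch the median was 196 kb and 5.61% spanned over 1000 kb. Spans differed by class, from a median of 30.4 kb for classical class I, where 8 of 11 loops were under 50 kb but those of H2-K1 spanned 30.4, 170 and 812 kb, to 144 kb for T and butyrophilin-like genes, 234 kb for class II, 309 kb for Q and 341 kb for M genes. The other end was a further member bait in 11 loops, a bait of another gene in 29 and no bait in 322.

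The 8 loops listed in every library were not all steady in score. H2-T3, which encodes the thymus leukaemia antigen, contacted chr17:36060001-36080000, 120 kb away, with scores of 17.8 and 17.6 in Brg1KD, 18.1 and 18.6 in Ino80KD, and 20.31 and 16.96 in Control, within the top 1% of each list. H2-T10 contacted the same 20 kb bin from 51.4 kb away. The bait shared by H2-M4-ps and H2-M5 and the second bait of H2-M5 both contacted chr17:36960001-36980000, beside Znrd1as. Scores from the second bait were 7.93 and 7.16 in Brg1KD, 11.92 and 13.45 in Ino80KD, and 11.68 and 7.99 in Control. H2-DMa contacted chr17:34160001-34180000, which begins at the end of H2-DMb1 and lies mostly beyond it. H2-D1 contacted chr17:35242986-35260000, at Ddx39b, and its own far side at chr17:35266761-35280000. The far-side loop of H2-D1 stood at the 7.47th percentile of scores in Brg1KD replicate 2 and at the 70.6th in Brg1KD replicate 1.

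H2-Q2, a Q-region class Ib gene, contacted chr17:35321287-35340000, at H2-Q1, in all libraries. The loop stood at the 97.7th and 97.9th percentile of scores in the Brg1KD lists, at the 51.4th and 71.4th in Ino80KD, and at the 82.6th and 96.7th in Control. The Ino80KD libraries were lowest and did not overlap Control. H2-Q2 as a whole had 6 and 3 loops in Brg1KD, 1 and 1 in Ino80KD, and 3 and 5 in Control, the Ino80KD libraries again below both others.

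Loops listed in both libraries of a depletion and in neither Control library were 8 of 284 member loops (2.82%) for Brg1KD, against 1.94% of all, and 8 of 294 (2.72%) for Ino80KD, against 2.49%. Listed in both Control libraries but in neither library of the depletion were 12 (4.23%) for Brg1KD, against 3.56% of all, and 12 (4.08%) for Ino80KD, against 2.77%. The 2 depletions share these Control libraries. Set against each other, 16 of 285 member loops (5.61%) were in both Brg1KD and neither Ino80KD library, against 2.16% of all, and 7 (2.46%) the other way, against 3.77%.

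Contacts listed in both libraries of Ino80KD and in no others included those of H2-Oa with Col11a2 (chr17:34060001-34080000, 22.1 kb) and H2-M5 with Gabbr1 (81.0 kb). The others were H2-Bl with chr17:36180001-36189382, which overlaps H2-T3 (100 kb), and an H2-Ke6 bait with the promoters at Csnk2b (1092 kb). The H2-Bl and H2-T3 baits contacted each other in the 2 Brg1KD and the 2 Ino80KD libraries, with scores of 5.02 to 5.48, and in neither Control library. Those were scores just over the minimum. Contacts listed in both Brg1KD libraries and no others were from H2-Q2 to chr17:35345739-35360000, from H2-M10.4 to chr17:36700001-36720000, from H2-M11 to chr17:36520001-36540000 and from the H2-M4-ps and H2-M5 bait to chr17:36920001-36940000. Both Control libraries and no others listed Btnl2 with chr17:34480001-34500000, the second H2-D1 bait with Ddx39b and H2-M10.1 with chr17:36500001-36520000. An H2-DMa bait shared with Brd2 contacted the bin before it in both Ino80KD and both Control libraries and in neither Brg1KD library.

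The H2-M10 genes, which encode class Ib molecules of the vomeronasal organ, showed a common layout. H2-M10.2, H2-M10.1, H2-M10.3 and H2-M10.4 lie side by side, and most of their listed loops reached over H2-M11 to the stretch that holds H2-M1, H2-M10.5 and H2-M10.6. These 4 baits had 10 and 8 loops into that stretch in Brg1KD, 8 and 8 in Ino80KD, and 12 and 13 in Control. The Ino80KD libraries listed fewer than either Control library, and so did the Brg1KD libraries, whose lists were the shortest in all. Some of these loops were listed in both Brg1KD and both Control libraries and in neither Ino80KD library. They ran from H2-M10.2 to chr17:36780001-36800000 (503 kb), from H2-M10.1 to chr17:36720001-36740000 (404 kb) and from H2-M10.3 to the same bin (361 kb). How often all loops show that pattern was not counted, so no depletion of the family is read from it.

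H2-M10.1 had 4 and 1 loops in Brg1KD, 3 and 2 in Ino80KD, and 7 and 6 in Control. H2-M10.3 had 3 and 4 loops in Brg1KD, 2 and 3 in Ino80KD, and 6 and 4 in Control. H2-M10.5 had 3 and 7, 7 and 3, and 2 and 6 in the same order, with all groups overlapping. H2-M11 had another order of groups, with 7 and 8 loops in Brg1KD, 1 and 0 in Ino80KD, and 4 and 2 in Control, none of the 3 groups overlapping another. Its Brg1KD loops reached to both sides of the bait.

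**Figure D3:**
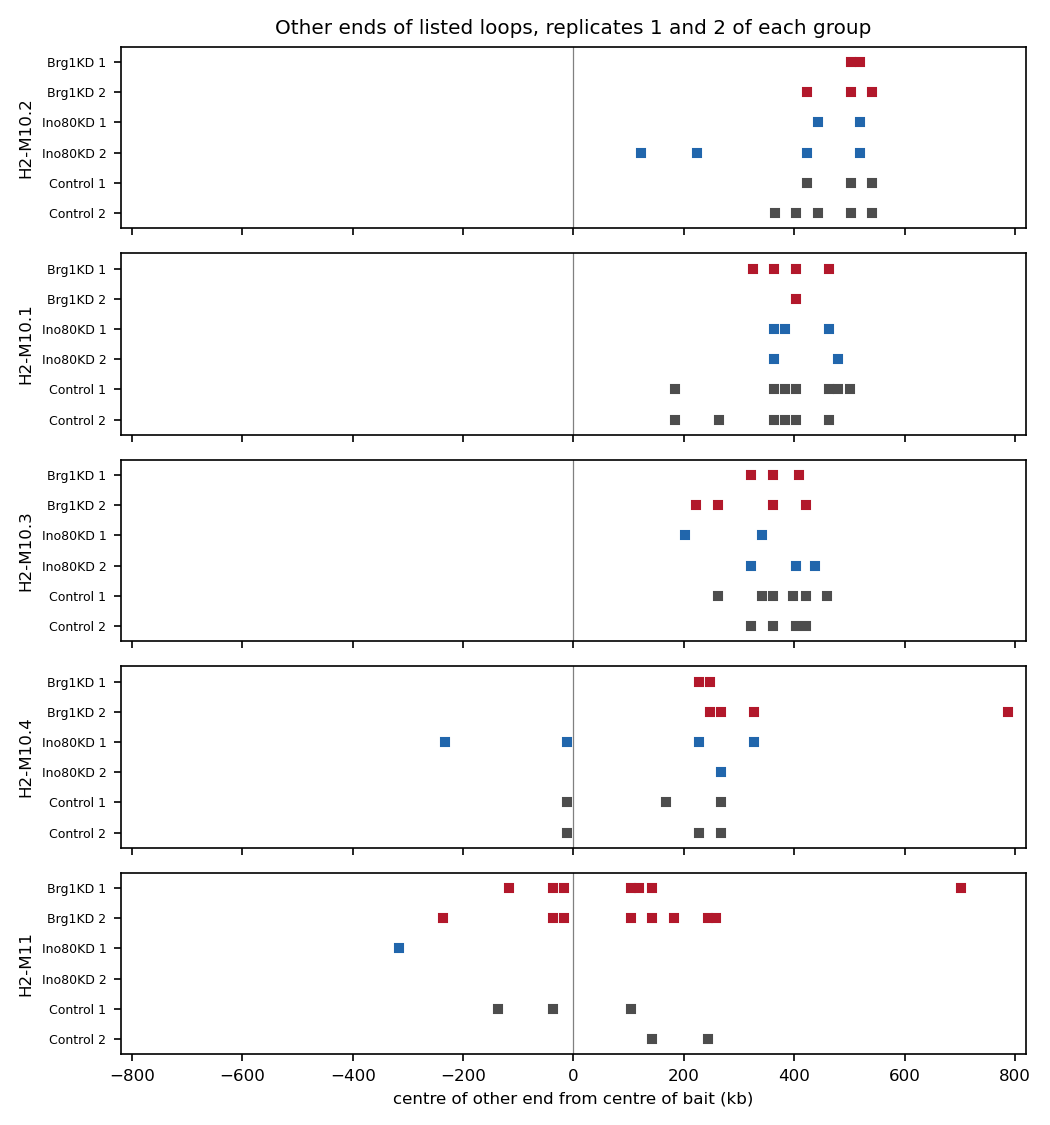
Distance in kb from the centre of the bait (grey line at 0) to the centre of the other end of each listed loop, one row per library, for 5 baits of the H2-M10 stretch; 2 Control ends, of H2-M10.4 at 2107 kb and H2-M11 at 28603 kb, are beyond the axis. Loops of H2-M10.2, H2-M10.1 and H2-M10.3 all point one way, and H2-M11 has 1 square in the 2 Ino80KD rows together.

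Class II and butyrophilin-like genes are neighbours, and their contacts crossed between the classes. Class II baits had 13 and 20 loops to the butyrophilin-like stretch in Brg1KD, 14 and 10 in Ino80KD, and 13 and 13 in Control. Butyrophilin-like baits had 6 and 7 loops within their own stretch in Brg1KD, 5 and 4 in Ino80KD, and 10 and 10 in Control. Both depletions were below Control in these counts, which are not scaled to the length of the list. The authors' deposited fold changes of these baits, given below, went the other way for Brg1KD (median 0.21, 28 of 40 rows above 0). For Ino80KD they were mostly below 0 (median -0.12, 7 of 40 above 0). Those rows also cover regions outside the stretch. The bin chr17:34160001-34180000 was reached from 12 member baits, and that at BC051142 (chr17:34420001-34440000) from 10. The first begins at the end of H2-DMb1, at position 34160229, and lies mostly beyond that gene.

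H2-Ob encodes a chain of H2-O, an inhibitor of the peptide loader H2-DM, and had the most loops of the members. It had 11 and 10 in Brg1KD, 9 and 4 in Ino80KD, and 6 and 9 in Control. Brg1KD lay above Control and above Ino80KD without overlap, and Ino80KD overlapped Control. From 108 kb to 191 kb away, 5 of its loops (to bins at H2-Eb2, Btnl2, Btnl1 and, for 2 of them, BC051142) were listed in every library but Ino80KD replicate 2. H2-Oa, the partner chain, had 1 and 2, 2 and 2, and 1 and 0 loops in Brg1KD, Ino80KD and Control.

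Among the presenting chains, H2-Aa had 5 and 5 loops in Brg1KD, 3 and 4 in Ino80KD, and 3 and 2 in Control, so Brg1KD lay above Control. H2-Ab1 had 1 and 2, 3 and 1, and 2 and 1, all overlapping. H2-Eb1 had 1 and 3 in Brg1KD and 3 and 2 in Ino80KD, both below the 4 and 6 of Control. H2-Eb2 had 1 and 1 in Brg1KD, 0 and 1 in Ino80KD, and 0 and 0 in Control. Of the peptide loaders, H2-DMa had 2 and 5, 6 and 6, and 9 and 4, H2-DMb2 7 and 5, 3 and 5, and 6 and 6, and H2-DMb1 4 and 2, 1 and 4, and 2 and 2 loops in Brg1KD, Ino80KD and Control.

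Of the butyrophilin-like genes, Btnl1, which with Btnl6 supports gamma delta T cells of the gut, had 4 and 3 loops in Brg1KD and 4 and 5 in Ino80KD, against 7 and 6 in Control. Btnl6 had 7 and 4 in Brg1KD, 1 and 0 in Ino80KD, and 5 and 0 in Control, whose 2 libraries thus differed. Btnl2, which restrains T cells, had 2 and 8 in Brg1KD, 3 and 3 in Ino80KD, and 5 and 8 in Control. Btnl4 had 1 and 4, 6 and 4, and 2 and 8, all overlapping.

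The classical class I genes H2-K1 and H2-D1, which present to CD8 T cells, had unlike numbers of loops. H2-D1 had 4 and 4 loops in Brg1KD and 2 and 2 in Ino80KD, against 5 and 6 in Control. H2-K1 had 1 and 2, 1 and 2, and 1 and 0. Of the non-classical genes, H2-M3, which binds N-formyl peptides, had 0 and 1, 0 and 2, and 1 and 0, and H2-T23, which encodes Qa-1, 1 and 1, 1 and 1, and 0 and 1. H2-M5 had 7 and 5, 6 and 10, and 8 and 4, in the same order of groups.

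The authors' deposited tables compare each depletion with Control over regions of contact, as a log2 fold change with its error and p-value. Their direction is not stated, and a positive value is read here as a contact that was stronger after depletion. For this, loops were matched to the rows that hold them, so that a row could count more than once. Of matches for loops listed in both Brg1KD and neither Control library, 82.0% were above 0. For loops in both Control and neither Brg1KD library it was 19.3%. The same shares for Ino80KD were 85.2% and 18.7%. Regions of a bait overlap and share contacts, so rows are not independent. No row of either whole table passed an adjusted p of 0.05, and the smallest adjusted p was 1.00 in both. The counts below therefore rest on unadjusted p-values.

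For Brg1KD the authors' deposited table held 251 member rows, from 43 baits. Their median log2 fold change was 0.09, with 162 rows (64.5%) above 0, against -0.0084 and 48.7% over the whole table and 0.04 and 55.7% for the other baits of the stretch. An unadjusted p under 0.05 was reached by 10 member rows (3.98%), against 1.20% of all rows, 9 of them higher (0.373% of all rows) and 1 lower (0.827% of all rows). The 9 came from 2 baits, H2-Ob and Btnl6, and without the H2-Ob bait 3 of the 10 were left. By class, the median was 0.21 for butyrophilin-like rows (28 of 40 above 0), 0.16 for class II (46 of 59), 0.05 for M, 0.04 for Q, 0.03 for T and -0.07 for classical class I.

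H2-Ob had 12 rows in the authors' deposited table for Brg1KD, all above 0, with a median of 0.48. Of these, 7 had a p of 0.0261 to 0.0493, at 0.40 to 0.62, and together they cover 1 stretch, chr17:34325045-34594045, which runs from H2-Eb2 over the butyrophilin-like genes to Notch4. The lowest p of the 7 in the authors' deposited table was over Btnl1 to Btnl4, at 0.50 ± 0.22 (SE, p = 0.0261). Further out, the authors' deposited table had rows at 0.53 ± 0.24 (p = 0.0301) and 0.57 ± 0.27 (p = 0.0351). For Ino80KD the same bait had 14 rows in the authors' deposited table, 6 above 0, with a median of -0.03. Over H2-Eb1 to Btnl1 the authors' deposited table gave -0.35 ± 0.21 (p = 0.104) and -0.32 ± 0.21 (p = 0.132).

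Btnl6 had 11 rows above 0 of 11 in the authors' deposited table for Brg1KD, with a median of 0.28. Over BC051142 and Btnl4, at chr17:34397700-34500000, the authors' deposited table gave 0.49 ± 0.20 (p = 0.0160), with an overlapping row at 0.48 ± 0.20 (p = 0.0177). These were the smallest p-values of any member row in that table. The H2-Ob and Btnl6 baits thus met the same stretch from opposite sides. H2-M11 had all 12 and H2-Aa all 9 of their rows above 0 there, with medians of 0.24 and 0.18, and none had a p under 0.05.

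**Figure D4:**
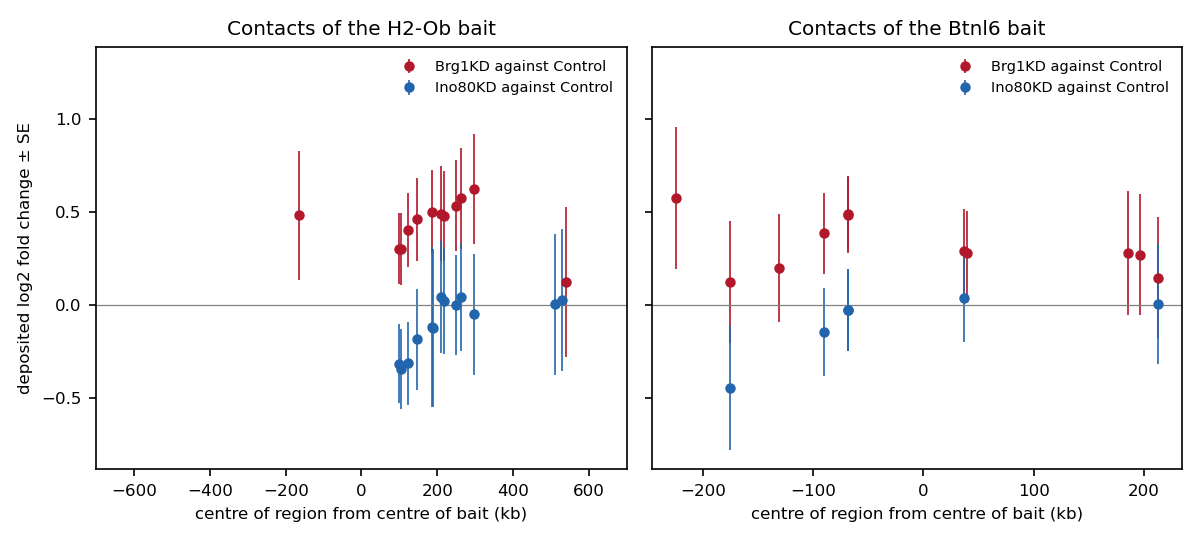
Deposited log2 fold change with its standard error (bars) for each region contacted by the H2-Ob and Btnl6 baits, against the distance in kb of the region's centre from the bait, in Brg1KD (red) and Ino80KD (blue) against the same Control libraries; an Ino80KD region of H2-Ob at -6968 kb is beyond the axis. Every Brg1KD point lies above 0, and the H2-Ob points between 99.7 kb and 298 kb lie between 0.30 and 0.62.

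The lower rows of Brg1KD were fewer. H2-M5 gave the 1 with a p under 0.05 in the authors' deposited table, at chr17:36945818-36982337 over Ppp1r11 and Znrd1, at -0.47 ± 0.23 (p = 0.0372). Within that region lies chr17:36960001-36980000, which the same bait contacted in every library. Of the 11 rows of H2-M5, 2 were above 0. Next in the authors' deposited table was an H2-DMa bait with Col11a2, H2-Oa and Brd2, at -0.32 ± 0.23 (p = 0.176) and -0.29 ± 0.23 (p = 0.215). H2-K1 at -0.33 ± 0.31 (p = 0.293) and H2-D1 at -0.20 ± 0.19 (p = 0.298) came next in that deposited table of the authors.

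For Ino80KD the authors' deposited table held 259 member rows, from all 46 baits. Their median was -0.05, with 103 (39.8%) above 0, against 0.0023 and 50.4% over the whole table. The other baits of the same stretch stood on the opposite side, at a median of 0.12 with 66.4% above 0. An unadjusted p under 0.05 was reached by 2 member rows (0.772%), against 1.29% of all rows, and both were higher (0.912% of all rows higher, 0.382% lower). One, at 0.54 ± 0.24 (p = 0.0207) in the authors' deposited table, was H2-Oa with Rxrb and Col11a2, where both Ino80KD lists alone held a loop. The other, at 0.46 ± 0.22 (p = 0.0390) in the authors' deposited table, was H2-Ke6 with the stretch from Wdr46 to Ring1, from a bait shared with another gene.

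In that same deposited table of the authors, M and butyrophilin-like rows lay mostly below 0, at medians of -0.19 (20 of 81 above 0) and -0.12 (7 of 40 above 0), and no row had a p under 0.05. All 9 rows of H2-M10.2, all 10 of H2-M10.3, all 6 of H2-M10.4 and all 12 of H2-M10.5 were below 0, with medians of -0.33, -0.24, -0.17 and -0.25. All 11 rows of Btnl1 and all 11 of Btnl2 were below 0 too, with medians of -0.21 and -0.23. Among M genes with over 2 rows, H2-M5 (0.21, 10 of 13 above 0) and H2-M4-ps (0.09, 3 of 5 above 0), which share a bait, had medians above 0. T rows stood at a median of 0.08 (21 of 26 above 0) and class II at -0.03 (27 of 64). Q rows stood at -0.01 (15 of 31) and classical class I at 0.01 (7 of 10).

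Further from 0, single rows had larger errors. H2-Aa with the stretch of H2-DMb2, Psmb9 and Tap1, the last a peptide transporter of class I, was given at -0.82 ± 0.48 by the authors' deposited table on Ino80KD (p = 0.0878). The authors' deposited table had H2-M11 with H2-M9 and H2-M1 at -0.43 ± 0.26 (p = 0.0943) and H2-DMb2 with H2-Eb1 to Btnl1 at -0.61 ± 0.39 (p = 0.117). On the other side of 0 in that deposited table of the authors, H2-Eb1 with Fkbpl to C4b was at 0.80 ± 0.43 (p = 0.0601) and H2-Q10 with Vars2 to Ddr1 at 0.75 ± 0.40 (p = 0.0605).

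**Figure D5:**
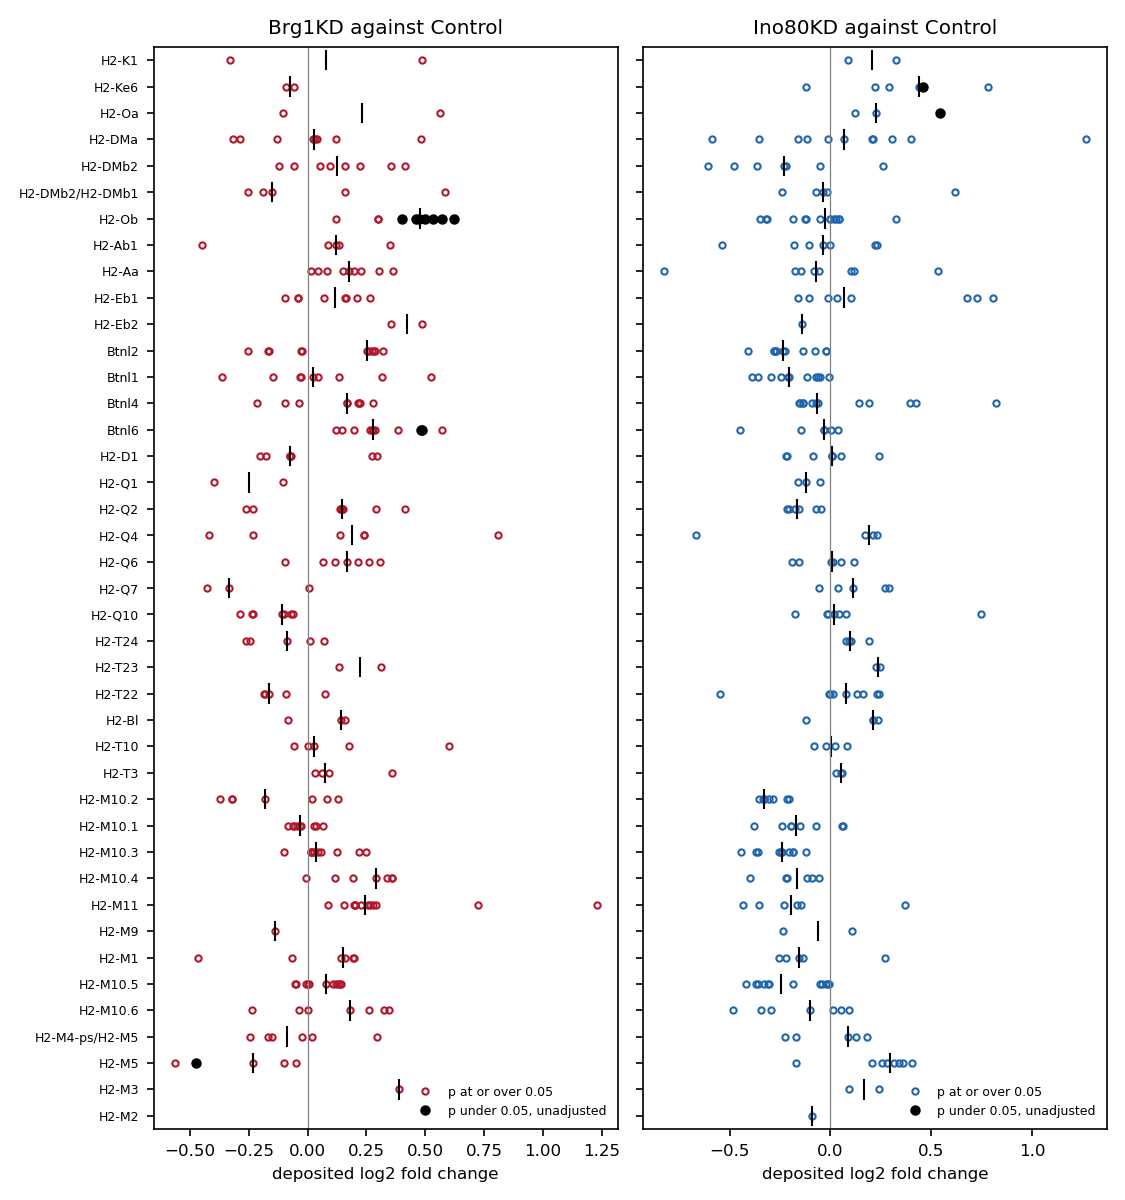
Deposited log2 fold change of each member row (circles) by bait gene in order along chromosome 17, Brg1KD against Control on the left and Ino80KD against Control on the right; black circles have an unadjusted p under 0.05 and vertical strokes are medians. The H2-Ob and Btnl6 rows lie right of 0 for Brg1KD, and rows of Btnl2, Btnl1 and most H2-M10 genes lie left of 0 for Ino80KD.

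Genes that act with the members in antigen presentation, outside the complex or between its members, were followed as a list of 26, of which 23 had a bait. Their 31 baits listed 30 and 34 loops in Brg1KD, 38 and 26 in Ino80KD, and 36 and 33 in Control. Per 1000 intrachromosomal loops these were 2.44 and 2.61 in Brg1KD, 2.58 and 1.83 in Ino80KD, and 2.34 and 2.28 in Control. On this scale Brg1KD lay above Control and Ino80KD on either side of it, while the counts themselves overlapped between Brg1KD and Control. Of their 79 rows in the authors' deposited table for Brg1KD 0 were higher and 1 was lower at an unadjusted p under 0.05, a contact of Erap1, which trims peptides for class I (p = 0.0398), which makes 1.27% against 1.20% of all rows. Of the 82 rows for Ino80KD in the authors' deposited table none reached it in either direction (0 and 0), and the smallest p was 0.103. Their medians were 0.05 and 0.03 on the log2 scale.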

How the data were processed

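The authors deposited, per library, a list of loops with an interaction score, listed from 5 up, and per depletion a comparison table against Control whose columns are, per the file headers, the mean signal after normalization, the log2 fold change and its standard error, a test statistic (a score), the p-values and the adjusted p-values. Build mm10 and bedtools are named per the submitters' processing notes, and the mapping filter and loop caller are not given in those sources. The files used here hold no counts, so depth is unknown, no count test was run and the deposited p-values are described as they stand. The members and gene lists were chosen with earlier results of these data known.

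Loops were joined as unordered pairs of ends. Genes were placed by RefSeq (GRCm38.p6), a bait within 2 kb of a gene body being assigned to it, and a library's member loops were divided by its intrachromosomal loops and multiplied by 1000. Named with values are the classical, class II, peptide-loading and butyrophilin-like genes with H2-M3 and H2-T23, and the 8 genes with most loops. Also named are loops listed in all libraries or in whole groups only, and the 5 rows of smallest p on either side of 0 in each table. For Ino80KD fewer than 5 rows above 0 are given. Members that were named beyond this, such as H2-M11, H2-T22, H2-Q2 and the H2-M10 genes, were chosen after their values were seen or stand in a count. Replicate numbers are shared between groups but, in the labels, mark a shared batch for replicate 1 of all groups and for replicate 2 of the depletions only. Counting was tested on simulated lists. Python 3.11.15, pandas 2.3.3, numpy 2.4.6, statsmodels 0.14.6, Biopython 1.88 and matplotlib 3.10.9 were used. Alternatives were another minimum score, window, denominator and set of baits, batch 1 alone, a replicate block and each library left out.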

Additional observations from a re-analysis of the deposited data

How the results depend on the processing

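The log2 ratio of member loops per 1000 was 0.11 for Brg1KD against Control, -0.18 for Ino80KD against Control and -0.29 for Ino80KD against Brg1KD, and kept its direction in all 10 alternatives run for each. With 1 library left out the ranges were 0.04 to 0.18, -0.34 to -0.03 and -0.45 to -0.14. Leaving out Brg1KD replicate 2 gave 0.04 and replicate 1 0.18 against Control. Leaving out Ino80KD replicate 1 gave -0.03 against Control and -0.14 against Brg1KD, and leaving out replicate 2 gave -0.34 and -0.45. With the replicate number as a block the values were 0.11, -0.19 and -0.29, within batch 1 0.06, -0.32 and -0.38, and with a score of at least 7 they were 0.21, -0.27 and -0.48. With all listed loops as denominator they were 0.0049, -0.18 and -0.19. The log2 ratio of Brg1KD to Control was thus near 0 there, and the Brg1KD libraries overlapped the Control libraries. With baits that meet no other protein-coding gene the values were 0.15, -0.32 and -0.47. The median deposited fold changes kept their sign in all 5 alternatives for each table. The 10 member rows of Brg1KD with an unadjusted p under 0.05 became 3 without the H2-Ob bait, an alternative chosen after seeing the data, since 7 were rows of that bait. The 2 of Ino80KD became 1 with baits that meet no other protein-coding gene, which leaves out the H2-Ke6 bait. Lists cut at a minimum score and 2 libraries a group limit what can be said of any single loop, since 58.6% of member loops were in 1 list.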

Other observations

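Butyrophilin relatives outside the H2 complex were followed as a list of 5 genes, of which 4 had a bait and Btnl12 had none. Their baits listed 14 and 14 loops in Brg1KD, 32 and 22 in Ino80KD, and 25 and 21 in Control. Brg1KD lay below Control and Ino80KD overlapped it. In the authors' deposited table for Brg1KD 7 of their 35 rows were above 0, with a median of -0.18, and 2 rows, both of Btn1a1, had an unadjusted p under 0.05 and were lower, which makes 5.71%, against 0.827% of all rows. For Ino80KD the authors' deposited table had 35 of 43 such rows above 0, at a median of 0.16, and none under that p. Most of these rows were of Btn1a1 and Btn2a2, on chromosome 13, with medians of -0.25 and -0.08 for Brg1KD and 0.16 and 0.39 for Ino80KD in the authors' deposited tables. Btnl9 had a median of 0.39 over 3 rows for Brg1KD and Btnl10 one of -0.41 over 3 rows for Ino80KD in those deposited tables of the authors. With 1 value per bait the medians from the authors' deposited tables were -0.04 and 0.06. Interchromosomal loops at member baits numbered 5 and 5 in Brg1KD, 7 and 7 in Ino80KD, and 5 and 7 in Control. Per 1000 interchromosomal loops of the library these were 0.952 and 1.41, 1.81 and 2.00, and 1.37 and 1.86. Both depletions overlapped Control on this scale. Brg1KD replicate 1 listed 5254 interchromosomal loops, the most of any library.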
